A study of Mus musculus with 6 samples.

Results

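The erythroid genes described here are a set of named genes of red cell formation: the globins Hba-a1, Hba-a2 and Hbb-b1, the heme enzyme gene Alas2, the membrane gene Slc4a1, the transcription factors Klf1 and Gata1, and the receptor gene Epor. They were taken by gene symbol from a list of 9 names, of which 8 were read from the 23284 genes of the deposited files and 1 was not analysed here. RNA was measured in C1498-EGFP cells, a mouse acute myeloid leukemia (AML) line that was expanded from 1 clone and carries a green fluorescent protein, injected into a vein of C57BL/6J mice, young adult females by the study's methods. GFP+ CD49b+ cells were sorted from bone marrow at day 21 after injection, from 3 mice given cytarabine, a cytosine analogue used as chemotherapy, and from 3 control mice. The labels name the controls both as PBS and as untreated, and the sources do not state the cytarabine dose for the sequenced mice in particular. Each mouse gave 1 library, called here cytarabine 1 to 3 and control 1 to 3. Levels are FPKM, fragments scaled to the exon length of the gene and to the mapped depth of the library, so genes can be compared per length.

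Red cells carry hemoglobin, a tetramer of alpha- and beta-globin chains with a heme group in each chain. Erythropoietin acts through its receptor on progenitors in the bone marrow, and the transcription factors GATA1 and KLF1 switch on the globin genes, the heme pathway and the genes of the red cell membrane as the cells mature. C1498 is not an erythroid line, and in a sorted bulk sample fewer cells of a type and less RNA per cell cannot be told apart.

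Across the erythroid genes, 1 library stood above the rest. Cytarabine 1 had the highest level of Hba-a1, Hbb-b1, Alas2, Slc4a1, Klf1, Gata1 and Epor, while the other cytarabine libraries were below every control for Slc4a1, Klf1 and Gata1. The cytarabine and control libraries overlapped for all 8 genes, and no difference between the groups was larger than the spread between mice.

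The libraries also differed in transcripts of other cells and tissues. The 9 measured markers of colon epithelium summed to between 1850 and 4250 FPKM in control 1 and in cytarabine 2 and 3, and to between 15.0 and 294 FPKM in cytarabine 1, control 2 and control 3. The first 3 are called here the high-colon libraries and the others the low-colon libraries. The division crosses the groups, so differences between groups are also given within each of its sides. The low-colon side holds only cytarabine 1 of its group, at 294 FPKM against 16.2 and 15.0 FPKM in control 2 and 3. The high-colon side holds only control 1 of its group. Differences within a side therefore rest on 1 library of a group and largely repeat the order of the libraries. Heart muscle markers summed to 7.75 to 2930 FPKM. The markers of the sorted cells, among them Ptprc (the CD45 gene), Itga2 (the CD49b gene) and the T cell gene Cd3e, were present in every library. They summed to 800, 613 and 655 FPKM in cytarabine 1 to 3 and to 636, 761 and 785 FPKM in controls. The sums were thus lowest in the high-colon libraries. Of these 5 markers, 3 were below every control in cytarabine 2 and 3 and 2 were highest in cytarabine 1. The shares of the 18178 genes above 0 FPKM in at least 1 library were 19.8% and 15.6%. Of the 8 myeloid leukemia markers, Cd33 was at 0.50 to 2.12 FPKM, Itgam at 0.933 to 4.76 FPKM, Fcgr3 at 8.23 to 24.4 FPKM and Mpo at 2.33 to 71.1 FPKM. Depth was inferred from the steps between low FPKM values and came to 11440000 to 18800000 reads per library, so that 3 reads on a transcript of 2000 bases were worth 0.0886 to 0.146 FPKM.

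**Figure D1:**
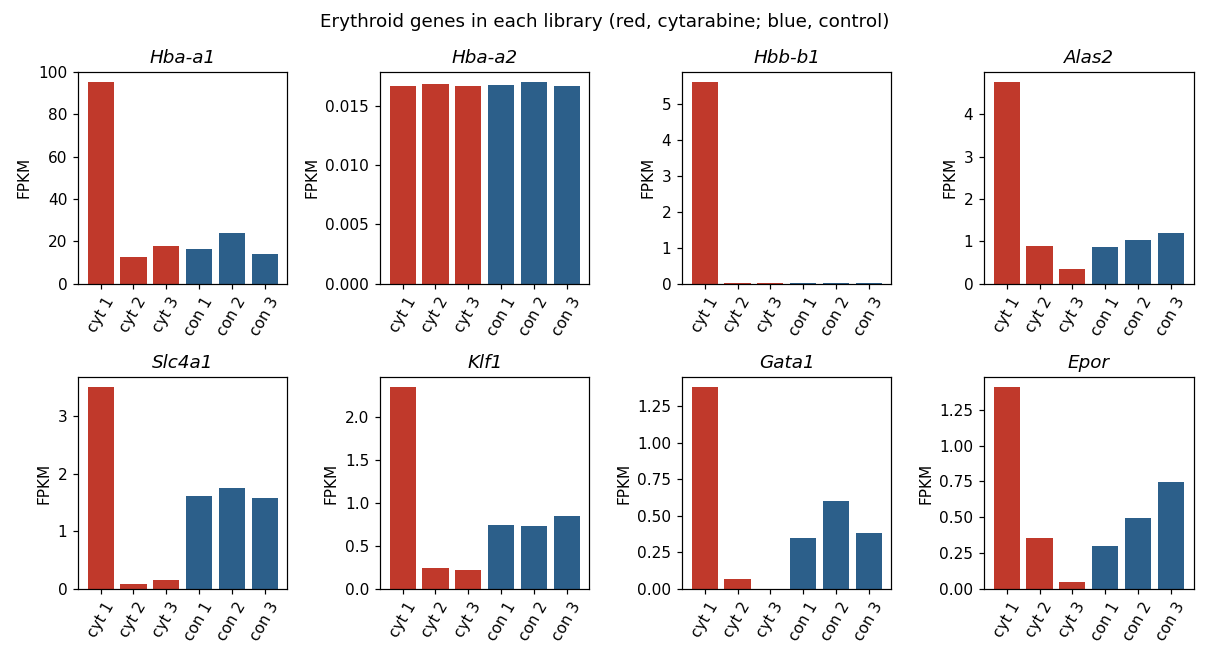
FPKM of the 8 erythroid genes in each library (red bars, cytarabine 1 to 3; blue bars, control 1 to 3), with a separate axis for each gene that starts at 0. Cytarabine 1 is the tallest bar in 7 of the 8 panels, while Hba-a2 lies at about 0.017 FPKM in every library.

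Alpha-globin was the most abundant of the members. Hba-a1 lies on chromosome 11 from 32283511 to 32284465 and Hba-a2 on the same strand from 32296489 to 32297298 (GRCm38). The coding sequences of the copies, 429 bases each, differ at 1 base, C381T, counted from the A of the Hba-a1 start codon. Of the 75-base stretches, the length of a read, 62.2% of those in the Hba-a1 transcript also occur in Hba-a2, and 81.0% of those in the Hba-a2 transcript occur in Hba-a1. The last 69 coding bases hold the difference between the copies, which is in capitals.
Hba-a1: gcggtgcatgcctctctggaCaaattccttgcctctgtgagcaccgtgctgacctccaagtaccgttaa
Hba-a2: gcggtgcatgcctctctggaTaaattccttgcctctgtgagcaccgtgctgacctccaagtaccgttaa
Hba-a1 reached 95.3 FPKM in cytarabine 1, beside 12.6 and 17.6 FPKM for cytarabine 2 and 3, against 16.3, 23.8 and 13.8 FPKM in control 1, 2 and 3. Cytarabine 1 was 5.30 times the mean of the controls, and the other cytarabine libraries lay among or just under them. By level, Hba-a1 held rank 1032 of all genes in cytarabine 1 and ranks between 4010 and 6225 in the other libraries. Hba-a2 was between 0.0166 and 0.0170 FPKM in all 6 libraries. A single read on its 554-base transcript would be worth 0.150 to 0.246 FPKM, so its value was below that of 1 read in each library. Because the copies share most of their sequence, the division of reads between them is uncertain, and their sum, 95.3, 12.6 and 17.6 FPKM in the cytarabine group against 16.3, 23.8 and 13.8 FPKM in controls, was that of Hba-a1.

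Beta-globin showed the same high library. Hbb-b1, a gene of the adult beta-globin chain, was at 5.61 FPKM in cytarabine 1 and between 0.00116 and 0.00216 FPKM in the other 5 libraries. A single read on a transcript of 2000 bases was worth at least 0.0295 FPKM in each library, so Hbb-b1 was near 0 outside cytarabine 1. Other beta-globin genes had larger values. Beta-s, an older name of Hbb-bs, was at 204, 28.0 and 32.0 FPKM in the cytarabine group against 21.6, 44.6 and 20.7 FPKM in controls, and Hbb-b2 at 37.7, 2.75 and 4.26 FPKM against 8.35, 11.4 and 5.59 FPKM. The annotation used for positions lists Hbb-bs and Hbb-bt, whose coding sequences differ at 1 base (C417T), and no gene named Hbb-b1 or Hbb-b2, so values of the beta-globin copies are uncertain where reads could be split. The other globin genes, most of them used before birth, were at or near 0. Hba-x, Hbb-bh2 and Hbq1a were listed at 0 in all 6 libraries, Hbb-bh1 reached 0.185 FPKM in cytarabine 3 alone, and Hbb-y reached 0.391 FPKM in control 2.

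The group comparison of the globins followed the high library. The log2 difference, cytarabine minus control on the log2(FPKM + 1) scale, was 0.65 for Hba-a1 (standard error 0.75, adjusted p = 0.632 from limma over all genes tested). The same quantity was 0.91 for Hbb-b1 and -0.00010 for Hba-a2, which were under the filter of a mean of 1 FPKM and were not entered in that fit. An exact two-sided permutation test of each gene gave p = 0.8 for Hba-a1, 0.9 for Hbb-b1 and 0.7 for Hba-a2, where 0.1 is the smallest p that 3 libraries against 3 allow. Without cytarabine 1, the difference in Hba-a1 turned to -0.22 (adjusted p = 0.599 from limma). It was 2.33 among the low-colon libraries (cytarabine 1 against control 2 and 3) and -0.12 among the high-colon ones (cytarabine 2 and 3 against control 1).

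Upstream sequence of the members was read from the RefSeq promoter table (GRCm38.p6), which gave 6 of the 8 genes. Hbb-b1 and Slc4a1 were not among them. A GATA motif (AGATAA, also with T as the first or G as the last letter, on either strand) was sought in the 250 bases before each start. It was found for Hba-a1, Hba-a2, Alas2, Klf1 and Epor, 5 of 6 genes (83.3%), against 26.5% of all 32851 promoters in the table. The stretch around the motif is the same in Hba-a1 and Hba-a2, so these copies are not separate cases. A CACCC-type motif (CCNCNCCC on either strand) was found in 3 of 6 (50%), against 45.9%. Sequences of 1 gene of each role are shown because the genes had their highest level in the same library. They end before the first annotated exon, run 5′ to 3′ on the strand of the gene, and have the GATA motif in capitals, which in Alas2, Klf1 and Epor lies on the opposite strand.
Hba-a1 (chr11:32283422-32283510, + strand): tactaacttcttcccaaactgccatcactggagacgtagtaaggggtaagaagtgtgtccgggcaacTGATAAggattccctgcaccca
Alas2 (chrX:150547167-150547374, + strand): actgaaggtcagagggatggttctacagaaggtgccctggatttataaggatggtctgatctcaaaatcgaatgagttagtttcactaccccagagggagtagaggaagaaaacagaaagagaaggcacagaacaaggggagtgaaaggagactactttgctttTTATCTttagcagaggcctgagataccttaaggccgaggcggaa
Klf1 (chr8:84901732-84901927, + strand): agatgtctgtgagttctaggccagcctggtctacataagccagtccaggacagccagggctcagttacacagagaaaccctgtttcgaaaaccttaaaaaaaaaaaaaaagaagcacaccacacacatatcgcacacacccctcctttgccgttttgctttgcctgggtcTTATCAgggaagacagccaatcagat
Epor (chr9:21963577-21963826, - strand): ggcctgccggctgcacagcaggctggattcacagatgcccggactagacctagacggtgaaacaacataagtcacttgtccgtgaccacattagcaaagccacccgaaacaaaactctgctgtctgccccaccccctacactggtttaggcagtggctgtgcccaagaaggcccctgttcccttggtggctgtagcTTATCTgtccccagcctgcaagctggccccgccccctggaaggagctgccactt
Counted from the RefSeq start, the motif begins 183 bases upstream in Hba-a1, 86 in Alas2, 80 in Klf1 and 54 in Epor. For Hba-a1, Alas2 and Klf1 the RefSeq start lies downstream of the GENCODE gene start given in the text, where the printed sequence ends, so the motif stands nearer to the end of the sequence shown. No such letters are in the 250 bases before the start of Gata1. A match to a motif is a description of the letters and was not tied to binding here.

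Alas2, on chromosome X from 150547375 to 150570638, encodes the erythroid form of the first enzyme of heme synthesis. It was at 4.76 FPKM in cytarabine 1, 0.884 in cytarabine 2 and 0.345 in cytarabine 3, and at 0.869, 1.02 and 1.20 FPKM in control 1, 2 and 3. Cytarabine 1 lay above all controls, cytarabine 2 among them and cytarabine 3 below. The log2 difference was 0.27 (standard error 0.56, adjusted p = 0.800 from limma; exact permutation p = 0.9). It was -0.35 without cytarabine 1, 1.45 among the low-colon libraries and -0.23 among the high-colon ones. Among the other heme enzyme genes, Cpox, at 27.3 FPKM in cytarabine 1 and 16.3 to 24.6 FPKM elsewhere, was the only other one highest in cytarabine 1. It is named after its values were seen. Among 9 enzymes of the pathway, all of which passed the filter, 0 had an unadjusted p under 0.05 from limma, against 7.6% of all genes tested in the higher direction and 9.81% in the lower. Their median log2 difference was 0.11, beside -0.0015 over all 11703 genes. Urod, the uroporphyrinogen decarboxylase gene, was at 47.2 to 51.8 FPKM in all 6 libraries. Heme enzymes other than Alas2 are used in every cell, and the levels of Urod lay above those of Alas2 in each library.

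Slc4a1, on chromosome 11 from 102348824 to 102366203, encodes band 3, the anion exchanger of the red cell membrane. It was at 3.50 FPKM in cytarabine 1, at 0.0848 in cytarabine 2 and at 0.154 in cytarabine 3, and at 1.61, 1.76 and 1.57 FPKM in control 1, 2 and 3. The controls were at 1.65 ± 0.10 FPKM (mean ± SD, n = 3), 1 cytarabine library lay above them and the others far below. The log2 difference was -0.57 (standard error 0.59, adjusted p = 0.593 from limma; exact permutation p = 0.4). Without cytarabine 1 it was -1.24 (standard error 0.21, unadjusted p = 0.0024, adjusted p = 0.0558 from limma), in a fit where 17.5% of all genes had an unadjusted p under 0.05 in the lower direction. The difference was 0.76 among the low-colon libraries, where cytarabine 1 is the only cytarabine library. It was -1.22 among the high-colon ones, where control 1 is the only control.

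The transcription factor genes had the same high library at lower levels. Klf1, on chromosome 8 from 84901928 to 84905291, encodes a zinc finger activator of the adult beta-globin gene. It was at 2.35, 0.238 and 0.225 FPKM for cytarabine 1 to 3, with controls at 0.738, 0.727 and 0.847 FPKM. Klf1 has 1 annotated transcript, of 1530 bases, so its reads could be inferred: 41, 6 and 4 with cytarabine and 14, 12 and 13 in controls. The 95% Poisson interval, which covers counting error only, was 29.4 to 55.6 reads for cytarabine 1 and did not reach that of any control, the highest of which ended at 23.5. With libraries summed and scaled to depth, a grouping chosen after the values were seen, cytarabine 2 and 3 had 10 reads, or 0.312 per 1000000 reads (95% Poisson interval 0.149 to 0.573), and the 3 controls had 39, or 1.03 (0.733 to 1.41). Both gaps, that of cytarabine 1 above the controls and that of cytarabine 2 and 3 below them, were larger than counting error, which leaves out the spread between mice.

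**Figure D2:**
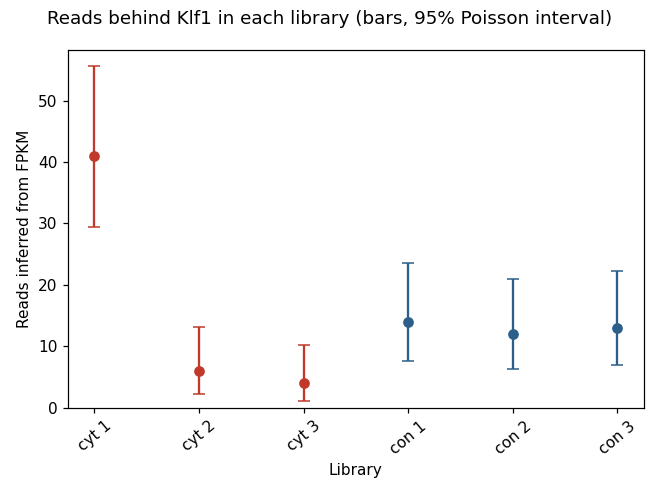
Reads of Klf1 in each library, inferred from FPKM (points; red, cytarabine; blue, control), with bars for the 95% Poisson interval. Cytarabine 1 has 41 reads against 12 to 14 in controls, and its interval lies above theirs.

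Gata1, on chromosome X from 7959260 to 7978071, encodes a zinc finger factor needed for red cell and platelet formation. It reached 1.38 FPKM in cytarabine 1, was at 0.0658 FPKM in cytarabine 2 and was listed at 0 in cytarabine 3, beside 0.350, 0.603 and 0.378 FPKM in controls. Cytarabine 1 was above the range of the controls and the other cytarabine libraries below it. Epor, on chromosome 9 from 21958897 to 21963506, was at 1.41, 0.357 and 0.0460 FPKM in the cytarabine group against 0.302, 0.496 and 0.747 FPKM in controls, so that cytarabine 2 lay among the controls. The log2 differences were -0.04 for Klf1, -0.08 for Gata1 and 0.0022 for Epor, and the exact permutation test gave p = 1 for each. Among the low-colon libraries they were 0.91, 0.68 and 0.57, and among the high-colon ones -0.50, -0.39 and -0.13. Klf1, Gata1 and Epor were under the filter of a mean of 1 FPKM, as were Hba-a2 and Hbb-b1, so 3 of the 8 members were tested by limma and 0 of 3 had an unadjusted p under 0.05, beside 17.4% of all genes tested. With an adjusted p under 0.05, 0 of 11703 genes (0%) were called, and 2038 had an unadjusted p under 0.05 from limma.

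**Figure D3:**
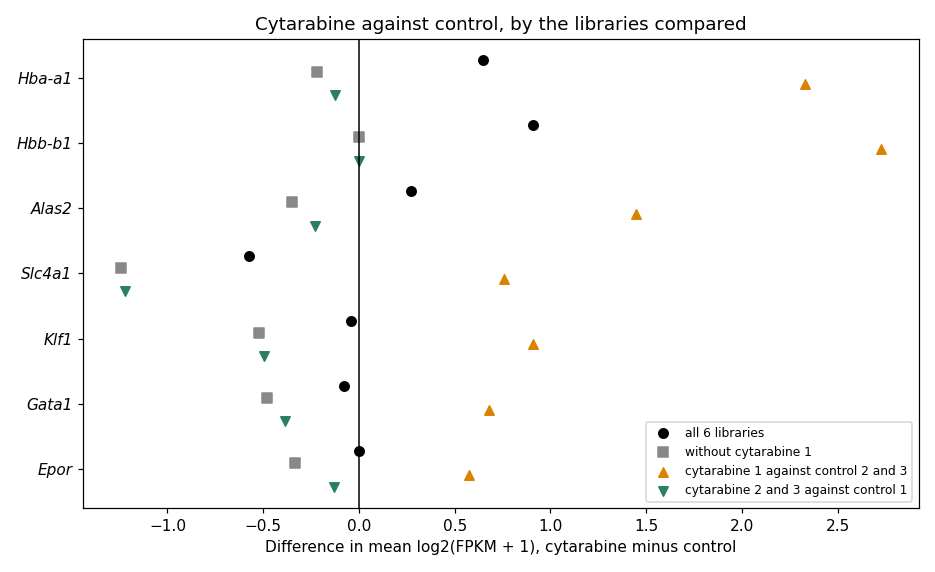
Difference in mean log2(FPKM + 1), cytarabine minus control, for the members other than Hba-a2 over all libraries (circles), without cytarabine 1 (squares), for cytarabine 1 against control 2 and 3 (upward triangles) and for cytarabine 2 and 3 against control 1 (downward triangles). Upward triangles, which rest on cytarabine 1 alone, lie between 0.57 and 2.72, and downward triangles between -1.22 and -0.0014, the latter for Hbb-b1, which was below 1 read in those libraries.

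The order of the libraries was then counted over all genes, a description chosen after the values were seen. No member had groups that did not overlap (0 of 8, beside 18.2% of the 18178 genes above 0 FPKM in at least 1 library). Cytarabine 1 was the highest library for 7 of the 8 members, beside 15.6% of those 18178 genes. Cytarabine 2 and 3 were both below every control for 3 of 8, beside 19.8%, and the patterns came together for 3 of 8, Slc4a1, Klf1 and Gata1, beside 2.73%.

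The wider red cell membrane and skeleton list held 18 genes including Slc4a1. Of these, 9 were highest in cytarabine 1, beside 15.6% of the 18178 genes above 0 FPKM in at least 1 library. Lower in cytarabine 2 and 3 than in every control were 11, beside 19.8%, and 8 had both, beside 2.73%. Among those 8 were Slc4a1, Ank1, Epb4.2, Spna1, Rhag, Rhd and Ermap. Rhag, which encodes a glycoprotein of the Rh complex, was at 1.12, 0.0499 and 0.0707 FPKM against 0.564, 0.381 and 0.779 FPKM. These genes other than Slc4a1 are named after their values were seen. Both patterns came together less often in the other erythroid lists. Members included, it was 4 of 16 transcription factors, 2 of 17 late erythroid genes and 1 of 14 iron and heme transport genes. It was 1 of 9 heme enzymes, 1 of 11 hemoglobin genes and 0 of 13 erythropoietin receptor pathway genes. Over the 90 list genes that are not members, both came together for 14 (15.6%).

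Most of the membrane and skeleton list was too low for the test. Of its 18 genes, 7 passed the filter and 0 of 7 had an unadjusted p under 0.05 from limma, with a median log2 difference of -0.09. The genes with the highest levels, Epb4.1 (protein 4.1, at 25.2 to 30.3 FPKM) and Gypc (glycophorin C, at 20.5 to 30.2 FPKM), are also used outside the red cell. Gypc was among the genes below every control in cytarabine 2 and 3, at 22.2 and 20.5 FPKM against 23.7, 26.1 and 30.2 FPKM.

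Among the erythroid transcription factors, 3 of 10 tested genes were higher with cytarabine at an unadjusted p under 0.05 and 0 were lower (beside 7.6% and 9.81% of all genes tested), with 0 at an adjusted p under 0.05. Tal1, which encodes a factor of blood stem cells and red cell precursors, was at 4.92, 3.90 and 3.56 FPKM in the cytarabine group against 1.45, 1.77 and 1.88 FPKM in controls. All cytarabine libraries lay above all controls, including cytarabine 2 and 3, which were low in Gata1 and Klf1. The log2 difference was 0.92 (standard error 0.17, unadjusted p = 0.0015, adjusted p = 0.137 from limma), and the unadjusted call was lost under quantile normalization. Myb, a factor of blood progenitors, was at 13.8, 16.7 and 14.5 FPKM against 12.0, 9.23 and 11.6 FPKM (log2 difference 0.43, adjusted p = 0.199 from limma). E2f2, a cell cycle factor gene, had a log2 difference of 0.32 (adjusted p = 0.206 from limma). The most abundant factors, Ldb1 and Zfpm1, which bind with GATA factors, were at 53.8 to 75.4 FPKM and at 25.1 to 39.9 FPKM, and neither passed the test.

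**Figure D4:**
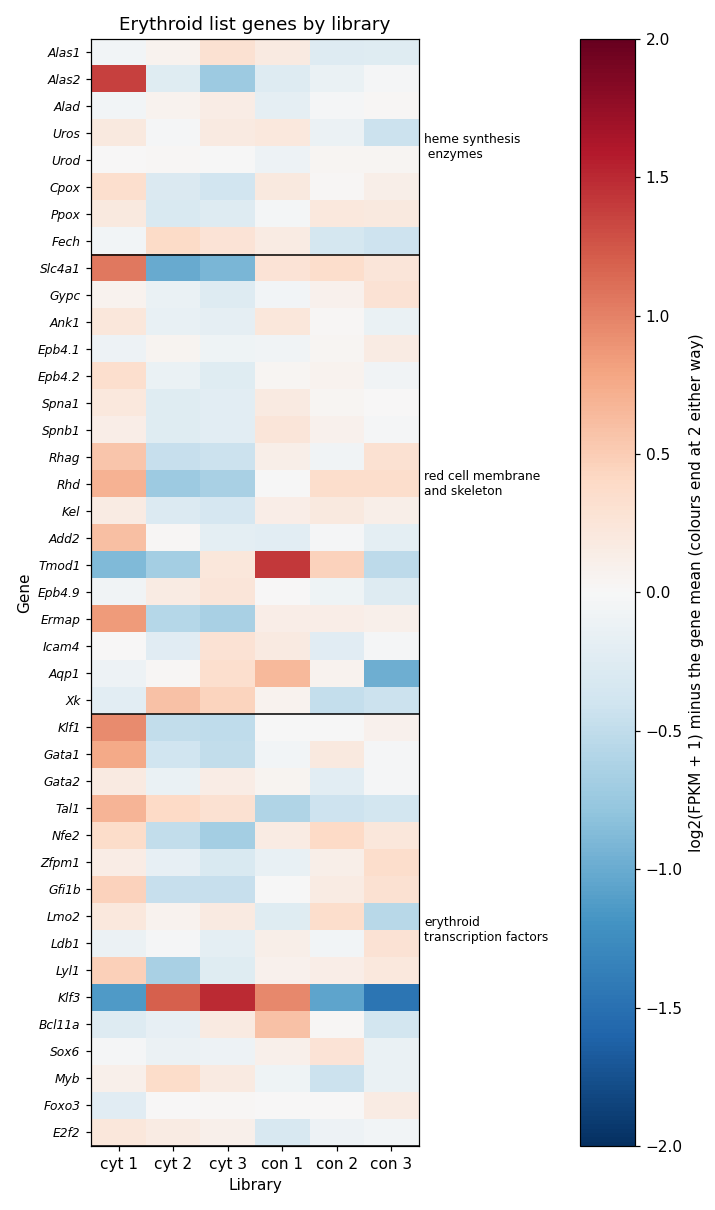
Heat map of log2(FPKM + 1) minus the mean of each gene over the 6 libraries, for the heme enzymes, the red cell membrane and skeleton genes and the erythroid transcription factors reported here (rows) by library (columns; cyt, cytarabine; con, control). Slc4a1, Klf1 and Gata1 are red in cytarabine 1 and blue in cytarabine 2 and 3, Tal1 is red in all cytarabine libraries, and most heme enzymes are pale.

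Downstream of the erythropoietin receptor, 8 of 13 listed genes were tested, 1 was higher and 1 lower at an unadjusted p under 0.05, beside 7.6% and 9.81% of all genes tested. Jak2, the kinase of the receptor, was at 21.6, 20.6 and 24.0 FPKM in the cytarabine group against 17.2, 18.4 and 17.6 FPKM in controls (log2 difference 0.30, adjusted p = 0.182 from limma). Bcl2l1, which encodes the survival protein Bcl-xL, was at 77.9, 57.0 and 56.9 FPKM against 83.9, 90.6 and 94.8 FPKM (log2 difference -0.50, adjusted p = 0.190 from limma). For both genes the groups did not overlap, which held for 10.9% of all genes tested in the higher and 12.9% in the lower direction. Pim1, a kinase gene of the pathway, was at 18.3 to 24.6 FPKM over the libraries.

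Of 14 iron and heme transport genes, all tested, 1 was higher and 1 lower at that threshold, beside the same shares of all genes. Abcb6, a porphyrin transporter gene, was at 33.5, 30.4 and 28.6 FPKM in the cytarabine group against 41.7, 45.8 and 46.2 FPKM in controls, a log2 difference of -0.52 (standard error 0.08, unadjusted p = 0.00080, adjusted p = 0.135 from limma). Ftl1, the ferritin light chain gene, was at 739, 979 and 914 FPKM against 709, 717 and 653 FPKM (log2 difference 0.33, adjusted p = 0.241 from limma), and Fth1, its heavy chain partner, at 663, 1066 and 1037 FPKM against 819, 677 and 575 FPKM. The ferritin genes are expressed in most cells. Among 17 late erythroid and organelle clearance genes, 14 were tested, 1 was higher (Blvrb, a biliverdin reductase gene, log2 difference 0.63, adjusted p = 0.239 from limma) and 1 lower (Xpo7, a nuclear export gene, -0.28, adjusted p = 0.260). The calls of Ftl1, Blvrb and Xpo7 were lost when some single libraries were left out. The most abundant late erythroid genes, Prdx2 and Nt5c3, were at 129 to 183 FPKM and at 88.2 to 102 FPKM. Over the 90 genes of these lists that are not members, 62 were tested, 6 were higher and 3 lower at an unadjusted p under 0.05, beside 17.4% of all genes tested in either direction, and 0 passed after adjustment.

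Neutrophil genes shared the low libraries with Slc4a1, Klf1 and Gata1, and a few of them shared the high library. The 12 neutrophil markers summed to 1698, 266 and 255 FPKM in cytarabine 1, 2 and 3 and to 1508, 2122 and 2090 FPKM in controls. Of the 12, 11 were lower in cytarabine 2 and 3 than in every control and 4 were highest in cytarabine 1. The shares of the 18178 genes above 0 FPKM in at least 1 library were 19.8% and 15.6%. S100a8 and S100a9, the most abundant of them, were at 61.5 to 86.9 FPKM in cytarabine 2 and 3 and at 514 to 809 FPKM in the other 4 libraries. Elane, Mpo and Prtn3, which encode granule proteins of young granulocytes and were named after their values were seen, were at 81.7, 71.1 and 64.3 FPKM in cytarabine 1, at 2.33 to 3.13 FPKM in cytarabine 2 and 3 and at 7.43 to 12.3 FPKM in controls. The neutrophil sum of cytarabine 1 lay within the controls. The 11 hemoglobin genes summed to 343, 43.3 and 54.1 FPKM in the cytarabine group against 46.6, 80.3 and 40.3 FPKM in controls. For the hemoglobin sum, cytarabine 2 and 3 lay among the controls. The part of other bone marrow cells in the erythroid levels was not tested. The 12 megakaryocyte and platelet markers stayed low in every library. Their sums were 7.56, 8.98 and 6.44 FPKM in the cytarabine group against 5.58, 5.97 and 5.08 FPKM in controls. The groups thus did not overlap in this sum, which was not tested. Of these 12, 6 were highest in cytarabine 1, 2 were below every control in cytarabine 2 and 3, and 1 had both. The shares of the 18178 genes were 15.6%, 19.8% and 2.73%. The 8 B cell markers summed to 6.72 to 15.6 FPKM and the 9 macrophage markers to 11.5 to 149 FPKM. Sums of mast cell, basophil and eosinophil markers were 349 to 503 FPKM, mostly Cpa3. Of these 8 markers, 5 were highest in cytarabine 1, 4 were below every control in cytarabine 2 and 3, and 2 had both. Smooth muscle markers summed to 19.5 to 879 FPKM. The 8 myeloid leukemia markers, which include Mpo, summed to 98.5, 41.7 and 28.6 FPKM in the cytarabine group against 32.8, 55.0 and 36.1 FPKM in controls.

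**Figure D5:**
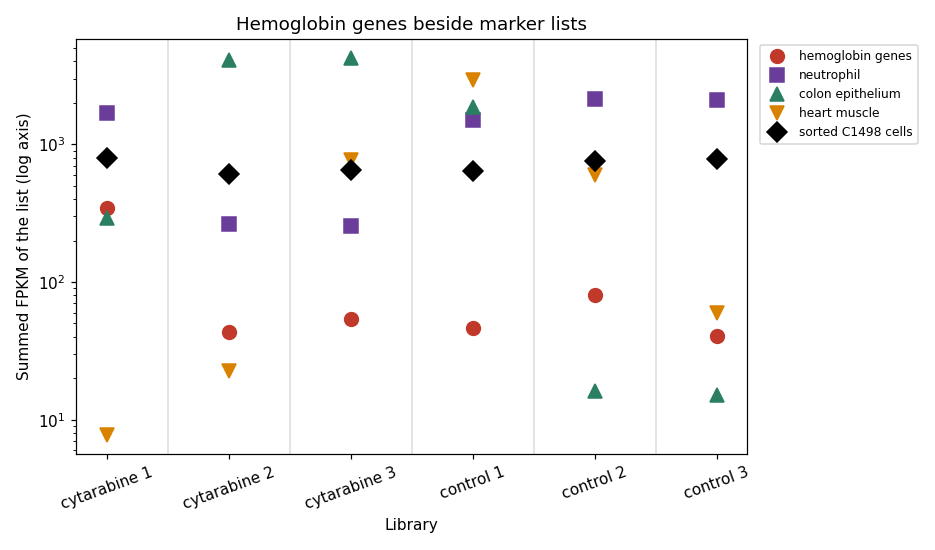
Summed FPKM of the hemoglobin genes and of 4 marker lists in each library, on a log axis. The hemoglobin sum is highest in cytarabine 1 at 343 FPKM, where colon markers sum to 294 FPKM, and the neutrophil sum falls to 266 and 255 FPKM in cytarabine 2 and 3.

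The genes most like Hba-a1 and Alas2 over the 6 libraries were found by the root mean square difference of log2(FPKM + 1) after the mean of each gene was subtracted, among genes that passed the filter. For Hba-a1 the nearest was Beta-s (0.26), followed by Hbb-b2 (0.38), Fcnb (0.38), Ms4a3 (0.41), Clec12a (0.46), Ccl1 (0.46), 1700029I15Rik (0.53) and Fam132a (0.54). Globin copies thus led the order, and genes of granulocyte precursors such as Fcnb and Ms4a3 came next, at 17.5 and 18.1 FPKM in cytarabine 1 and at most 2.64 FPKM elsewhere. For Alas2 the nearest were 9930111J21Rik1 (0.28), Trem3 (0.30), Rpl30 (0.30), Mx1 (0.32), Fam132a (0.34), Cebpe (0.36), Tdg (0.36) and Mcpt8 (0.36). The first gene of an erythroid list in that order was Add2, an adducin gene, at place 27.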

How the data were processed

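RNA from sorted C1498-EGFP cells of 6 mice was made into stranded mRNA libraries. Per the labels and the methods of the study, the authors mapped 75-base reads to mm10 with TopHat2 2.0.13, Bowtie2 2.2.3 and SAMtools 0.1.19, and deposited FPKM per gene from Cufflinks 2.2.1. The gene annotation and the handling of reads that match several places are not given in the sources used here, so values of near-identical globin copies depend on how reads were split. Groups and replicate numbers were taken from the source names of the samples. Each library is 1 mouse.

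The 9 genes and all lists were chosen with earlier results of these data known. The 11703 of 23284 genes whose mean reached 1 FPKM were fitted on log2(FPKM + 1) with limma 3.58.1 in R 4.3.3 (eBayes with trend, two-sided, Benjamini-Hochberg over all genes tested). On this scale changes of low genes are understated. Each member also had an exact permutation test. The genes named are the members, the 2 most abundant non-members of each erythroid list and up to 2 per direction with the smallest unadjusted p under 0.05, the most abundant markers where values are given, and the 8 genes most like Hba-a1 and Alas2. Some single genes are not reported here. Others are marked in the text as chosen after their values were seen. Older symbols were matched through RefSeq.

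Library totals were inferred from FPKM steps of 2774 genes with 1 transcript in GENCODE M21, assuming 200-base fragments, and 69.5 to 77.3% of low values came within 0.1 of a whole read. A count test was not run, since the steps do not give whole reads for nearly all genes. Intervals and the 3-read level cover counting error only. Positions are from GENCODE M21 (GRCm38), and promoters from RefSeq. Alternatives were another pseudocount, other filters and scalings, eBayes without trend, the replicate block, and leaving out each library. Sums over globin copies were added after the data were seen. Figures were drawn with matplotlib 3.10.9.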

Additional observations from a re-analysis of the deposited data

How the results depend on the processing

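Of the 276 alternative values, 226 were labelled unchanged, by a rule that differed between kinds of value. A count of genes had to stay near the count reported. A gene fitted by limma had to keep its direction and its side of the threshold. Values without a fit had to move by less than the spread between libraries. For members under the filter the sign did not have to hold, and that spread includes cytarabine 1. Hbb-b1, at 0.91 over all libraries and -0.00048 without cytarabine 1, was thus labelled unchanged. Without cytarabine 1 the log2 difference (limma) turned to -0.22 in Hba-a1 and to -0.35 in Alas2, and 1 member, Slc4a1, passed an unadjusted p under 0.05 (-1.24, adjusted p = 0.0558). Without 1 library at a time, Hba-a1 ranged from -0.22 to 1.19, Alas2 from -0.35 to 0.70 and Slc4a1 from -1.24 to -0.21, and the number of members at an unadjusted p under 0.05 from 0 to 1. Among members tested by limma, the sign also turned in the high-colon libraries for Hba-a1 (-0.12) and Alas2 (-0.23). In the low-colon ones it turned for Slc4a1 (0.76), while Hba-a1 was at 2.33 and Alas2 at 1.45. Of the members not tested by limma, leaving out Hba-a2, Klf1 (0.91) and Gata1 (0.68) turned in the low-colon libraries. Epor (-0.13) and Hbb-b1 (-0.0014) turned in the high-colon ones. A pseudocount of 0.1 FPKM gave -0.88 for Gata1, -0.43 for Klf1, -0.34 for Epor and 1.94 for Hbb-b1. A smaller pseudocount stretches differences between low levels. The cause of the differences between libraries was not tested. Adjusted p from limma over the fits ran from 0.599 to 0.829 for Hba-a1, from 0.401 to 0.988 for Alas2 and from 0.0558 to 0.895 for Slc4a1.

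Genes at an adjusted p under 0.05 were 0 as reported, 1 with a pseudocount of 0.1 FPKM, 2 with eBayes without trend and 0 to 5 without 1 library (5 without cytarabine 1). At an unadjusted p under 0.05 they were 2038 as reported and 1179 (without control 3) to 4075 (without cytarabine 1). The replicate block gave 994, and no member passed in it. Same-numbered libraries are different mice, and the correlation of their deviations was -0.71, -0.25 and -0.59. For each number, 1 library is high-colon and the other low-colon. The correlations therefore cannot tell whether the numbers mark a pairing. Genes whose groups do not overlap were 2781 as reported and 3385 to 6533 without 1 library. Groups separate more easily with fewer libraries, so part of that rise follows from leaving a library out. Tal1 lost its unadjusted call under quantile normalization (0.66, adjusted p = 0.363 from limma), and the calls of Ftl1, Blvrb and Xpo7 were lost without 4 or 5 of the 6 libraries left out in turn, and those of Ftl1, Xpo7 and Myb in the block, and that of Xpo7 under either other filter. With globin copies summed, the differences were 0.65 for alpha-globin and 0.87 for beta-globin, with no test. At 11440000 to 18800000 reads, members under 0.1 FPKM rest on a few reads at most. Hba-a2 in every library, and Hbb-b1 outside cytarabine 1, were below the value of 1 read.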

Other observations

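The ratio of alpha- to beta-globin depended on which beta-globin genes were summed. The sum of Hba-a1 and Hba-a2 was 2.20, 4.58 and 4.13 times that of Hbb-b1 and Hbb-b2 in cytarabine 1 to 3, and 1.96, 2.09 and 2.47 times in the controls. With Beta-s, the most abundant globin gene of the files, added to the beta sum, the ratios were 0.385, 0.410 and 0.486 in the cytarabine group and 0.546, 0.426 and 0.525 in the controls, so the higher ratio of cytarabine 2 and 3 was not kept. How reads were divided among the beta-globin copies was not tested.

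Carbonic anhydrase genes, which are used in red cells and also in colon, took the order of the colon markers. Car1 was at 29.8, 127 and 174 FPKM for cytarabine 1 to 3, beside 84.5, 5.45 and 7.27 FPKM for the controls, unlike any of the members. The gene was chosen after its values were seen.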
